A study of Mus musculus with 4 samples.

Results

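The 10 genes described here encode the 70 kDa heat shock proteins (HSP70) of cytosol and mitochondria, their larger relatives of the HSP110 family, and the transcription factors that switch heat shock genes on. They were chosen by symbol (Hspa1a, Hspa1b, Hspa8, Hspa2, Hspa9, Hsph1, Hspa4, Hspa4l, Hsf1 and Hsf2) from the 55573 gene IDs of the count tables, and all 10 were found and passed the filter on low counts. They were measured in quadriceps, the large thigh muscle, of 7-week-old mice: 2 libraries from Vdr knockout mice (strain B6.129S4-Vdrtm1Mbd/J; the vitamin D receptor is lost in all tissues) and 2 libraries from wild-type (WT) C57BL/6J mice. Weaning was on day 21 for both genotypes, with chow given ad libitum after it. Replicates carry the numbers 1 and 2, with no sex and no word on separate or pooled animals. Libraries of the same group scattered by more than read counting alone would give. Divided by its degrees of freedom, the chi-square between replicates came to 8.86 for WT and 13.8 for knockout. Whether this spread is technical or lies between animals was not tested. The set was proposed with the knockout and WT values of these genes already in view, so those values are a description. Counts of called members stand beside the share of all genes called and support nothing.

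HSP70 proteins bind unfolded stretches of other proteins and release them in a cycle driven by ATP. J-domain proteins bring the clients and trigger ATP hydrolysis, and HSP110 proteins, which descend from the same family, exchange the spent ADP for ATP. In unstressed cells Hspa8 supplies most of the cytosolic HSP70, while heat, exercise and protein damage switch on Hspa1a and Hspa1b through heat shock factor 1, which binds heat shock elements made of inverted GAA units. In skeletal muscle the inducible HSP70 is known to follow contraction and temperature.

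Total counts were 21.34 M and 11.21 M in knockout replicates 1 and 2, against 10.79 M and 13.03 M in WT replicates 1 and 2. Sex-linked genes differed as between males (knockout) and females (WT). Xist had 0 and 3 counts in the knockout libraries, against 1929 and 2778 in the WT libraries, so genotype and sex cannot be told apart below. The Y-linked gene Ddx3y had 1594 and 739 counts in the knockout libraries, against 50 and 0 in the WT libraries. WT replicate 1 also held 21 counts of Eif2s3y, 13 of Kdm5d and 11 of Uty, all Y-linked, where WT replicate 2 held 1, 0 and 0. Vdr had 5 and 1 counts in knockout libraries, against 5 and 0 in WT libraries, too few to check the labels. All 12 muscle fibre markers had counts, with summed levels of 87658 and 88803 CPM in knockout libraries, against 99632 and 92606 CPM in WT libraries, and none passed the test. Fat-cell markers were higher in the knockout. They summed to 4213 and 3700 CPM in knockout libraries, against 978 and 1218 CPM in WT libraries, 7 of 11 were called higher, and none was at 0. Red-cell markers, 3 of 5 called higher, summed to 550 and 390 CPM in knockout libraries, against 243 and 266 CPM in WT libraries, while none of the macrophage, endothelial or fibroblast markers was called. CPM here are counts per M counted reads after TMM normalisation of library sizes, and called means an adjusted p below 0.05 in edgeR's quasi-likelihood test across 13076 genes. In whole muscle, fewer cells of a type and less RNA per cell cannot be told apart.

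Promoters of the inducible pair and of Hsph1 are shown first, since they hold the letters of heat shock elements. That of Hspa4, a constitutive relative of Hsph1, is given for comparison. The promoter of Hspa4l, classed as inducible below, holds no such letters and is not printed. Each line gives the 150 bases before the RefSeq transcription start (build GRCm38.p6), read in the direction of the gene, with capitals marking each GAANNTTC or TTCNNGAA, the letters of a 2-unit element.
Hspa1a: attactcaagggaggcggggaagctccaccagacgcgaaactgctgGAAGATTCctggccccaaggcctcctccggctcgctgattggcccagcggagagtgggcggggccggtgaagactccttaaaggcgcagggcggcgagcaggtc
Hspa1b: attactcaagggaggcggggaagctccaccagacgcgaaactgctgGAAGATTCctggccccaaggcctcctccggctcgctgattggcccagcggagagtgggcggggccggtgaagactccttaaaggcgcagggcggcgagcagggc
Hsph1: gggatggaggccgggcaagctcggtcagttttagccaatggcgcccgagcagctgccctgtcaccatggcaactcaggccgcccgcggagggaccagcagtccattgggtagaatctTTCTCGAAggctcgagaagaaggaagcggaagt
Hspa4: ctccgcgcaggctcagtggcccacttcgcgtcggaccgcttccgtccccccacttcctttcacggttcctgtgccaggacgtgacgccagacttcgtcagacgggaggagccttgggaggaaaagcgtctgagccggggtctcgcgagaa

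These stretches lie on the minus strand at chr17:34972157-34972306 (Hspa1a), chr17:34959239-34959388 (Hspa1b), chr5:149636337-149636486 (Hsph1) and chr11:53300480-53300629 (Hspa4). The Hspa1a and Hspa1b stretches differed at 1 of 150 bases and carry the same element, which begins 104 bases before the start. The Hsph1 element begins 33 bases before the start of this RefSeq entry, and 54 bases before the start of the other. Hsph1 also holds a 3-unit element, TTCTGGAAAGTTC, that begins at base 37 or base 16 of the transcript, by the entry. The 3-unit letters searched were GAANNTTC followed after any 2 bases by GAA, or TTCNNGAA followed after any 2 bases by TTC. These are the same site read on opposite strands and contain the 2-unit letters.

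The RefSeq table held promoters (250 bases before the start and 50 after) of 7 of the 10 genes, Hspa1a, Hspa1b, Hspa2, Hspa4, Hspa4l, Hsph1 and Hsf2. The 3-unit element was found in 1 of these 7 genes, Hsph1, and in 0.603% of all 32851 promoters. The 2-unit element was found in 3 of them, Hspa1a, Hspa1b and Hsph1, and in 15.1% of all promoters. Neither element was found in Hspa4l, which is classed as inducible below and was called lower in the knockout. CCAAT, on either strand, was found in 5 of the 7 and in 37.4% of all promoters, and TATAAA in 0 of the 7 and in 13.6%. Among 62 tested genes with a 3-unit element 3 were called lower in the knockout (4.84%), against 49 of 9791 tested genes without one (0.500%). The 3 were Hsph1, a member chosen with its values in view, the HSP90 cochaperone gene Chordc1 and A330023F24Rik. For the commoner 2-unit element the counts were 9 of 1394 (0.646%) against 43 of 8459 (0.508%). A match of letters is no evidence of binding, and these shares are descriptions.

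Hspa1a and Hspa1b, the stress-inducible HSP70 genes, held the lowest values relative to WT among the 10. Both lie on chromosome 17 on the minus strand with a single exon each, Hspa1a at 34969190 to 34972156 and Hspa1b at 34956436 to 34959238, 9951 bases apart. Their coding sequences agree at 1915 of 1923 aligned bases (99.6%), and 68.1% of the 100-base windows of the Hspa1b coding sequence occur unchanged in Hspa1a. After the coding sequence 70.4% of aligned bases agree. An annotated antisense gene, Gm20481, overlaps Hspa1a exons and had 0 counts in all 4 libraries. These counts do not show whether reads lying over both genes were left out. Reads could be split between the nearly identical copies or lost, and how multiply matching reads were handled is not stated in the labels. Lost reads would set the pair too low against other genes, in its share of cytosolic HSP70 reads and in the order of levels per kb. Exons of Hspa8 overlap the annotated genes Snord14c, Snord14d and Snord14e on the same strand. Reads of Hspa8 lost there would set the pair's share too high. Neither loss was tested.

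Hspa1a stood at 8.41 and 2.39 CPM in knockout replicates 1 and 2, against 80.1 and 33.9 CPM in WT replicates 1 and 2. Hspa1b stood at 7.18 and 2.39 CPM in knockout replicates, against 114 and 51.0 CPM in WT replicates. The groups did not overlap for either gene, but the libraries of each group were far apart, with replicate 1 the higher in both groups. The fitted log2 fold changes, knockout over WT, were -3.30 ± 0.97 for Hspa1a and -4.01 ± 0.89 for Hspa1b (SE). They ranked 4 (Hspa1a) and 3 (Hspa1b) from the lowest of all tested genes, and their standard errors were the largest of the 10. Neither was called in edgeR's test (adjusted p = 0.40 for Hspa1a and 0.30 for Hspa1b). Without WT replicate 1 the values were -2.55 and -3.32, and without knockout replicate 1 they were -4.57 and -5.10.

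Summed, the inducible pair had 328 and 56 counts in knockout libraries, against 2043 and 1088 counts in WT libraries, or 10.2 ± 7.65 CPM against 139 ± 76.9 CPM (SD, n = 2 each). The level in WT was 13.7 times that in the knockout, with 15.6 CPM in the higher knockout library, against 84.9 CPM in the lower WT library. Mitochondrial rRNA took 45.3% and 41.2% of the counts in knockout libraries, against 42.9% and 44.4% in WT libraries, and scaling without it and Rn7sk left the fold changes of the pair at -3.29 and -4.00. Hspa1b contributed 46.0% (95% exact interval 40.5 to 51.6) and 28 of 56 reads (36.3 to 63.7) of the pair in knockout libraries, against 58.6% (56.5 to 60.8) and 60.1% (57.1 to 63.0) in WT libraries. In knockout replicate 2 the interval reached the WT values, and the intervals cover counting error only.

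**Figure D1:**
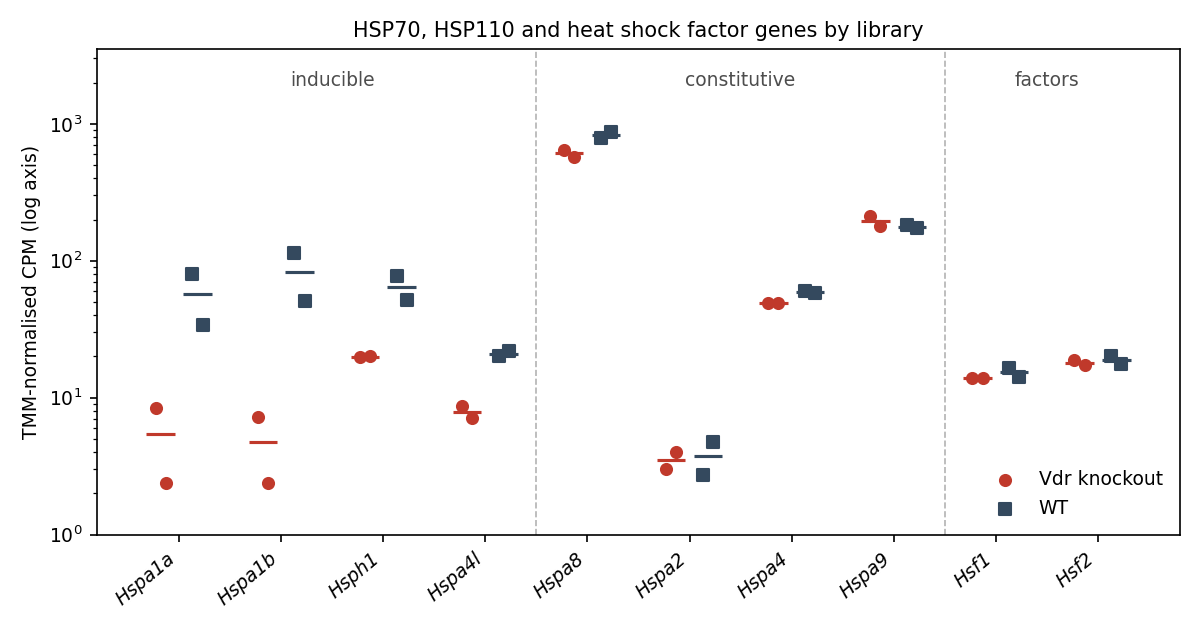
Levels of the 10 genes in each library, in TMM-normalised CPM on a log axis, with Vdr knockout libraries as circles to the left of WT libraries as squares and a line at each group's mean (n = 2). Hspa1a and Hspa1b lie between 2.39 and 8.41 CPM in knockout libraries, against 33.9 to 114 CPM in WT libraries, while the groups overlap for Hspa2, Hspa9 and Hsf2.

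Hspa8 (chromosome 9, 40800984 to 40810087), the constitutive HSP70 that also strips clathrin coats from vesicles, was by far the most abundant of the 10. It stood at 648 and 573 CPM in knockout libraries, against 784 and 868 CPM in WT libraries. Both knockout libraries were below both WT libraries, where this held for 21.7% of all tested genes. The log2 fold change was -0.44 ± 0.14. The difference between the group means in CPM was nonetheless larger for Hspa8 than for the inducible pair. Hspa8 was not called in edgeR's test (adjusted p = 0.16). Hspa2 (chromosome 12, 76404176 to 76406938), known for its role in sperm formation and present at low level in other tissues, had 2.99 and 4.01 CPM in knockout libraries, against 2.75 and 4.76 CPM in WT libraries. The groups overlapped (-0.14 ± 0.31), and the sign turned to 0.32 without WT replicate 2 and to 0.07 without knockout replicate 1.

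Of all reads of cytosolic HSP70 genes (Hspa1a, Hspa1b, Hspa8 and Hspa2), the inducible pair made up 2.34% (95% exact interval 2.10 to 2.60) and 0.821% (0.621 to 1.06) in knockout libraries, against 19.8% (19.0 to 20.5) and 8.86% (8.37 to 9.38) in WT libraries. This share does not depend on how libraries are scaled. Both knockout libraries were below both WT libraries, and the libraries of each group lay apart beyond their counting intervals. Cytosolic HSP70 reads in all came to 624 ± 60.0 CPM in the knockout and 969 ± 15.6 CPM in WT (SD, n = 2 each), a change of -35.6% relative to WT.

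Hspa9 (chromosome 18, 34937414 to 34954357), the mitochondrial HSP70 that pulls imported proteins into the matrix, was the sole member of the 10 with a positive fold change. It had 211 and 180 CPM in knockout libraries, against 181 and 174 CPM in WT libraries. The groups overlapped, with a log2 fold change of 0.14 ± 0.13. Set against Hspa8 in the same library, Hspa9 gave 24.5% and 23.9% of the reads of both genes in knockout libraries, against 18.8% and 16.7% in WT libraries.

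Among HSP110 genes, Hsph1 (chromosome 5, 149614287 to 149636376), which encodes the heat-inducible HSP105, stood at 19.7 and 20.1 CPM in knockout libraries, against 77.3 and 51.9 CPM in WT libraries. The knockout libraries were nearly equal and both well below the WT pair, with a log2 fold change of -1.70 ± 0.18. Hspa4l (chromosome 3, 40744495 to 40796103), which encodes a relative inducible by heat and by osmotic stress, had 8.65 and 7.16 CPM in knockout libraries, against 20.1 and 21.8 CPM in WT libraries (-1.39 ± 0.16). Hspa4 (chromosome 11, 53259814 to 53300457), the constitutive exchange factor of the family, had 49.2 and 48.8 CPM in knockout libraries, against 60.6 and 57.9 CPM in WT libraries. Both knockout libraries were below both WT libraries for Hspa4, where this held for 21.7% of all tested genes. Its log2 fold change was -0.27 ± 0.12, and it was not called in edgeR's test (adjusted p = 0.32).

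The make-up of the HSP110 family thus differed between the groups. Hsph1 gave 25.4% (95% exact interval 23.3 to 27.6) and 26.5% (23.6 to 29.5) of HSP110 reads in knockout libraries, against 49.0% (46.5 to 51.4) and 39.4% (37.1 to 41.8) in WT libraries. Hspa4 gave 63.5% and 64.1% in knockout libraries, against 38.3% and 44.0% in WT libraries. There were 0.400 and 0.413 Hsph1 reads for each Hspa4 read in knockout libraries, against 1.28 and 0.896 in WT libraries. HSP110 genes together stood at 76.8 ± 1.04 CPM in the knockout and 145 ± 18.6 CPM in WT (SD, n = 2 each).

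**Figure D2:**
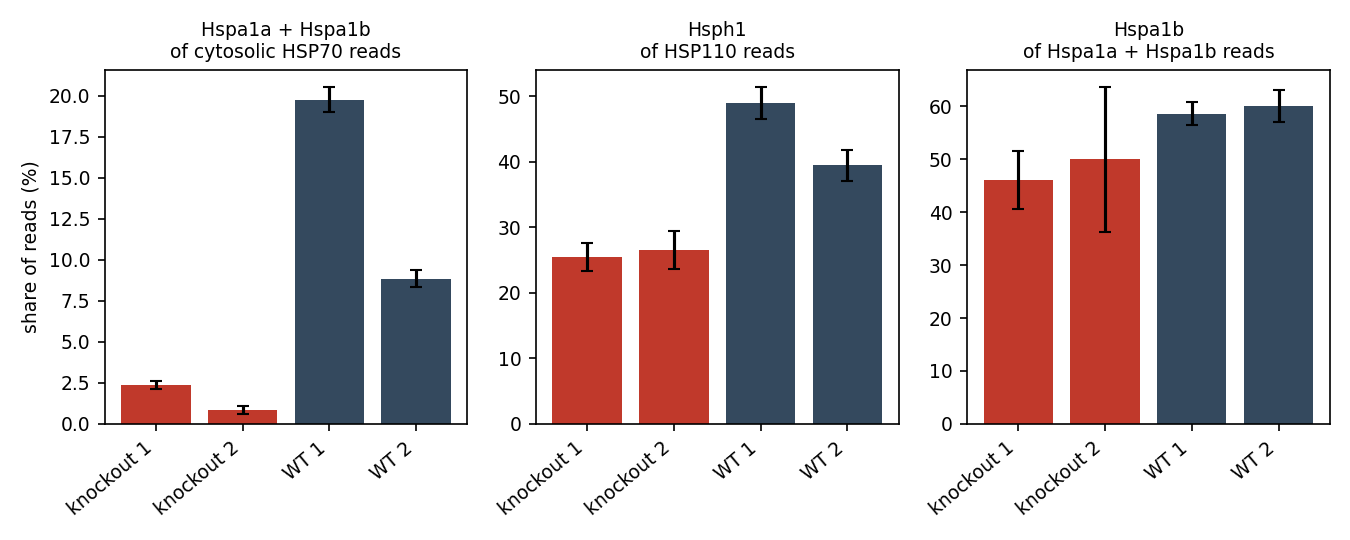
Share of reads in each library, knockout in red and WT in dark blue, with 95% exact binomial intervals that cover counting error only. The left panel gives Hspa1a and Hspa1b among cytosolic HSP70 reads (0.821% to 2.34% in knockout, 8.86% to 19.8% in WT), the middle one Hsph1 among HSP110 reads (25.4% to 26.5% against 39.4% to 49.0%) and the right one Hspa1b within its pair.

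Hsf1 (chromosome 15, 76477422 to 76501913), the main factor of the heat shock response, had 13.9 CPM in each knockout library, against 16.4 and 14.3 CPM in WT libraries (-0.14 ± 0.15). The gene lies 21.35 Mb from Vdr on the same chromosome. Hsf2 (chromosome 10, 57486385 to 57513135), a factor best known from development that can pair with Hsf1, had 18.7 and 17.4 CPM in knockout libraries, against 19.995 and 17.6 CPM in WT libraries (-0.05 ± 0.15). Hsf1 gave 42.6% and 44.4% of the reads of both factors in knockout libraries, against 45.1% and 44.7% in WT libraries. Heat shock factor 1 is controlled largely by its phosphorylation, trimer formation and entry into the nucleus, which RNA counts do not measure.

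By class, the 4 inducible genes (Hspa1a, Hspa1b, Hsph1 and Hspa4l) had log2 fold changes between -4.01 and -1.39 with a median of -2.50. The 4 constitutive genes (Hspa8, Hspa2, Hspa4 and Hspa9) lay between -0.44 and 0.14 with a median of -0.21, so the classes did not overlap. The difference of the medians was -2.29, and -1.49 when Hspa1a and Hspa1b were summed into 1 gene. Over all 10 the median was -0.35, where all tested genes had a median of -0.00035. In edgeR's fit 2 of the 10 were called, Hsph1 and Hspa4l, both lower, where 2.47% of all tested genes were called and 0.558% were called lower. Knockout libraries lay wholly below WT libraries for 7 of the 10, where this held for 21.7% of all tested genes, and wholly above for 0, where this held for 23.0%. DESeq2 called 5 of the 10, all lower (Hspa1a, Hspa1b, Hspa4l, Hspa8 and Hsph1), where it called 2.71% of 11063 genes and 0.714% lower. With the replicate number as a block 4 were called, all lower (Hspa1a, Hspa1b, Hspa4l and Hsph1), where 2.40% of all genes were called and 0.482% lower. The same 4 were called lower without robust estimation, where 1.87% of all genes were called and 0.344% lower. Nothing is read from these counts or from the gap between the classes. Values of this contrast were known when the set and its classes were chosen.

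**Figure D3:**
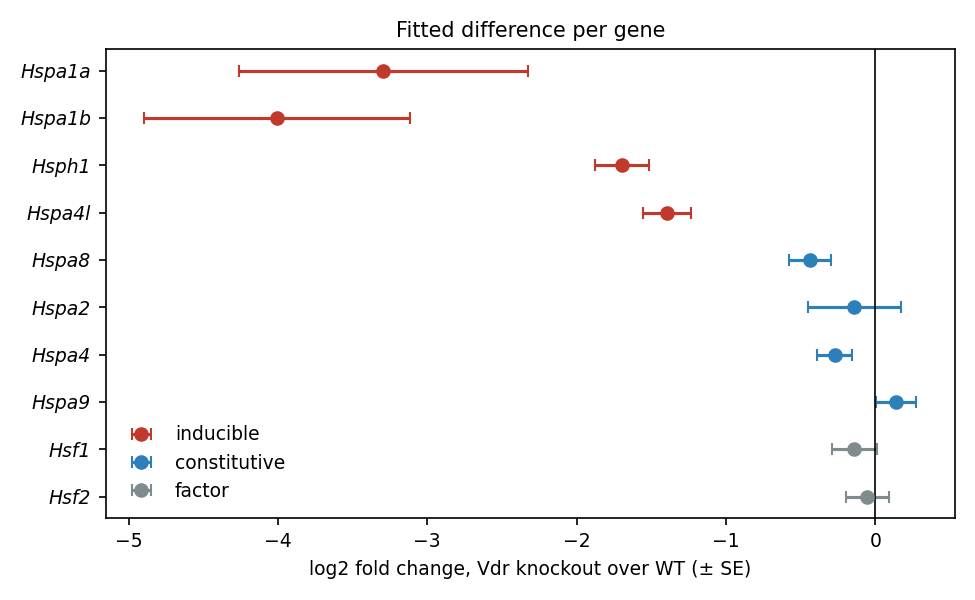
Fitted log2 fold change, Vdr knockout over WT, of each gene with its standard error, coloured by class. The inducible genes lie between -4.01 and -1.39, and the constitutive genes and the factors between -0.44 and 0.14. Classes were chosen with earlier results of these data known, so their gap is a description.

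Levels of different genes were compared as CPM per kb of exon. In knockout muscle the order was Hspa8 (142 ± 12.3), Hspa9 (45.3 ± 5.02), Hspa4 (8.86 ± 0.054), Hsph1 (2.74 ± 0.043), Hsf1 (1.96 ± 0.0019), Hsf2 (1.88 ± 0.098), Hspa1a (1.82 ± 1.44), Hspa1b (1.71 ± 1.21), Hspa2 (1.32 ± 0.27) and Hspa4l (0.67 ± 0.089; SD, n = 2). In WT muscle it was Hspa8 (192 ± 13.9), Hspa9 (41.2 ± 1.30), Hspa1b (29.4 ± 15.8), Hspa1a (19.2 ± 11.0), Hspa4 (10.7 ± 0.34), Hsph1 (8.89 ± 2.48), Hsf1 (2.16 ± 0.21), Hsf2 (1.96 ± 0.17), Hspa4l (1.78 ± 0.11) and Hspa2 (1.42 ± 0.54; SD, n = 2). By group mean Hspa1b and Hspa1a thus ranked next after Hspa9 in WT and below both heat shock factors in the knockout. In knockout replicate 1, however, Hspa1a (2.84) and Hspa1b (2.56) stood above Hsf1 (1.96) and Hsf2 (1.95). In knockout replicate 2 Hspa1a (0.805) and Hspa1b (0.852) stood below Hsf1 (1.96) and Hsf2 (1.81). In the knockout neighbours from Hsf1 to Hspa2 did not differ beyond their spread, and in WT neither did neighbours from Hspa9 to Hsph1 or from Hsf1 to Hspa2. With the length of the longest coding transcript in place of all exons, Hspa4 and Hsph1 changed places in WT. In the knockout Hsph1 (5.23 ± 0.083) then stood below Hsf2 (6.94 ± 0.36) and Hsf1 (6.60 ± 0.0064; SD, n = 2).

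The genes whose pattern over the 4 libraries was nearest to Hsph1 were sought among 6172 abundant protein-coding genes, by the distance between centred log2 CPM profiles. They were Hsp90aa1, the inducible HSP90 (distance 0.328), Hspb1, a small heat shock protein (0.487), Ccn3, a matrix-associated signalling protein (0.549), Dnaja1, a J-domain protein (0.552), Cilp2, a cartilage matrix protein (0.753), and Mfap4, a microfibril protein (0.754). The nearest genes to Hspa8 were Nrip1, a nuclear receptor corepressor (0.034), Hspa5, the HSP70 of the endoplasmic reticulum (0.050), the receptor gene Adgrl1 (0.058), the potassium channel gene Kcnc4 (0.062), Utp3 (0.064) and the protease gene Fap (0.081). None of these Hspa8 neighbours was called. Small distances are easily reached with 4 libraries.

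Chaperones and partners outside the set were taken from 8 lists, which were written with earlier results of these data known. Of 105 tested genes 11 were called lower (10.5%) and 1 higher (0.952%), where 0.558% and 1.91% of all tested genes were. Because of that choice these shares are a description and support nothing. Of 19 HSP90 and cochaperone genes 5 were called lower and 1 higher (median -0.30). Hsp90aa1 fell to 45.2 and 35.0 CPM in knockout libraries, against 170 and 118 CPM in WT libraries (log2 fold change -1.84 ± 0.19, edgeR adjusted p = 0.0010). Its constitutive paralogue Hsp90ab1 fell less (-0.68 ± 0.14, adjusted p = 0.030), as did Chordc1 (-0.68 ± 0.12), Ahsa2, an activator of the HSP90 ATPase (-0.75 ± 0.15), and Stip1, which bridges HSP70 and HSP90 (-0.59 ± 0.12). Fkbp5, a cochaperone induced by glucocorticoids, rose (0.93 ± 0.20, adjusted p = 0.0497). The calls of Hsp90aa1 and Chordc1 were kept without each library in turn. The call of Hsp90ab1 needed WT replicate 1 (-0.53 when it was left out), knockout replicate 1 (-0.71) and knockout replicate 2 (-0.65), and that of Ahsa2 needed WT replicate 1 (-0.66) and knockout replicate 1 (-0.68). Stip1 was not called without any 1 library (-0.67 to -0.51), and the call of Fkbp5 needed WT replicate 2 (0.62 on leaving it out) and both knockout replicates (0.80 without replicate 1 and 1.03 without replicate 2). Ahsa2 was also not called with DESeq2 or the replicate block, and Fkbp5 not under relative log expression scaling or without X and Y genes. Without robust estimation Hsp90ab1, Stip1 and Fkbp5 were not called.

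Of 15 J-domain genes of the cytosol 2 were called lower and none higher (median -0.13). Dnaja1 fell to 43.8 and 31.98 CPM in knockout libraries, against 103 and 77.1 CPM in WT libraries (-1.24 ± 0.18, edgeR adjusted p = 0.0071). Dnaja4 fell too (-0.70 ± 0.15), a call that depended on WT replicate 1 (-0.66 on leaving it out), WT replicate 2 (-0.73) and knockout replicate 2 (-0.57), and that was also lost with DESeq2 and without robust estimation. Dnajb1, the heat-inducible partner of the inducible HSP70, is outside the rule for named genes and was picked after its values were seen. It had 19.2 and 12.4 CPM in knockout libraries, against 40.5 and 18.4 CPM in WT libraries, with overlapping groups and no call. Like the inducible pair it was higher in replicate 1 of both groups.

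Of 11 exchange factors and adaptors of HSP70 only Bag3 was called. Bag3, which ties HSP70 to the disposal of damaged muscle proteins, fell to 31.9 and 31.7 CPM in knockout libraries, against 61.0 and 50.9 CPM in WT libraries (-0.81 ± 0.13, edgeR adjusted p = 0.0071). The list's median was -0.01, and Bag4 (0.51 ± 0.17) and Hikeshi, which carries HSP70 into the nucleus (-0.39 ± 0.14), were not called. Of 8 small heat shock proteins 1 was called, Hspb1 (-1.30 ± 0.14, adjusted p = 0.00053), while Hspb6 (-0.40 ± 0.12) and Cryab (-0.36 ± 0.13) were not. Bag3, Dnaja1 and Hspb1 were called without each library in turn.

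Chaperones of other compartments held few calls. Of 19 genes of the endoplasmic reticulum 1 was called, Sdf2l1 (-1.57 ± 0.29), which was not called on leaving out WT replicate 2 (-1.31) or knockout replicate 1 (-1.65). Hspa5 was not called (-0.40 ± 0.13, edgeR adjusted p = 0.17). Of 13 mitochondrial chaperones and partners of Hspa9 none was called in edgeR, and their median was 0.12. The exchange factor Grpel1 (0.29 ± 0.12), the import motor subunit Timm44 (0.35 ± 0.13) and Hspe1, the lid of the mitochondrial chaperonin (-0.42 ± 0.12), were nearest to the threshold. Of 14 genes of the cytosolic chaperonin and prefoldin none was called, 13 had a negative fold change, and the median was -0.21.

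Among 6 tested relatives outside the set, Hspa1l was called lower. This HSP70 gene, best known from the testis, starts 546 bases from Hspa1a on the opposite strand (chromosome 17, 34972703 to 34979285). It fell to 4.94 and 5.97 CPM in knockout libraries, against 9.38 and 11.7 CPM in WT libraries (-0.97 ± 0.20, edgeR adjusted p = 0.028), which was not called on leaving out WT replicate 2 (-0.80) or knockout replicate 1 (-0.83), nor with DESeq2 or without robust estimation. Of 11 other genes of the heat shock response none was called in edgeR (median 0.06). Those with the smallest p were Dedd2 (-0.85 ± 0.23), the collagen chaperone gene Serpinh1 (-0.52 ± 0.15) and the metallothionein gene Mt2 (1.39 ± 0.35). Other settings did call them. Mt2 was called higher with DESeq2 (1.37), with the replicate block (1.31), without the filter on low counts (1.40) and without knockout replicate 2 (1.78). Serpinh1 was called lower with DESeq2 (-0.53) and without the filter (-0.51), and Dedd2 without the filter (-0.84) and without WT replicate 2 (-1.15).

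**Figure D4:**
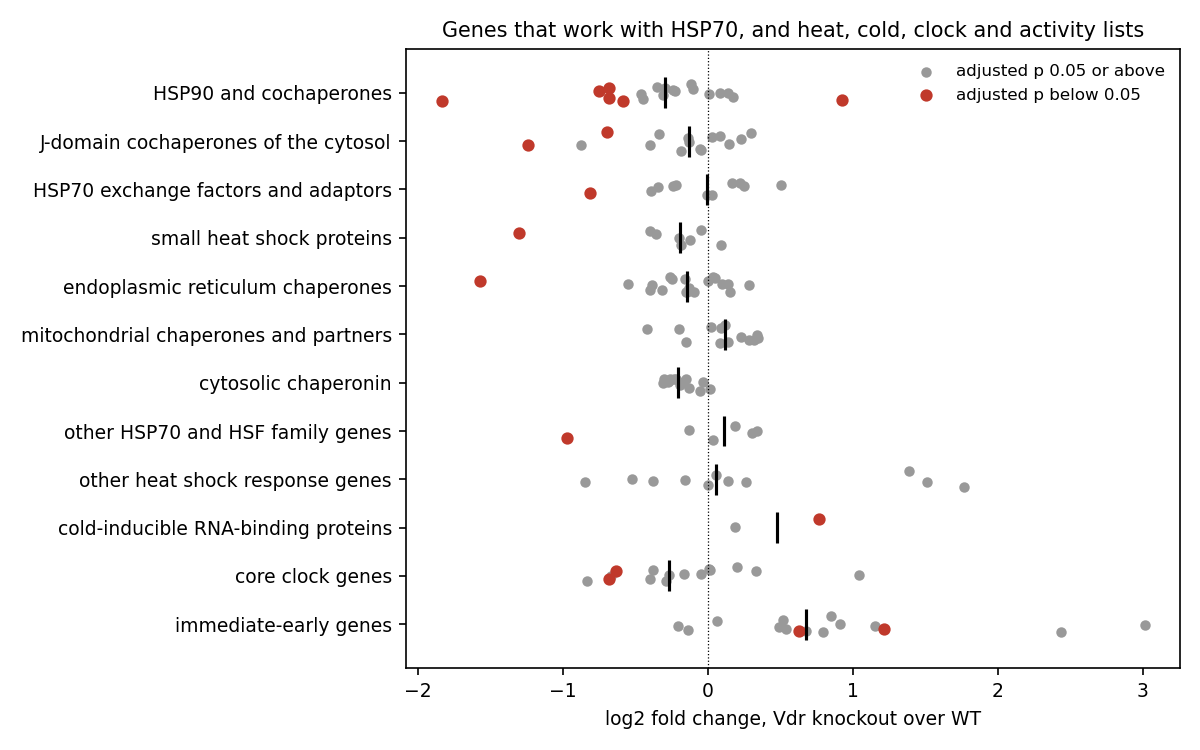
Log2 fold change, Vdr knockout over WT, of every tested gene of 12 lists outside the set, with a bar at each list's median and called genes in red. Called genes at the left include Hsp90aa1 (-1.84), Sdf2l1 (-1.57), Hspb1 (-1.30) and Dnaja1 (-1.24), while the mitochondrial list is centred at 0.12.

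Lists that respond to temperature, time of day or handling were measured beside the chaperones. Rbm3, an RNA-binding protein induced by mild cold, rose to 68.0 and 61.7 CPM in knockout libraries, against 36.6 and 39.7 CPM in WT libraries (0.77 ± 0.13, edgeR adjusted p = 0.0071). It is X-linked, and its relative Cirbp was not called (0.19 ± 0.22). Of 15 core clock genes 2 were called lower and none higher (median -0.27), Nr1d2 (-0.68 ± 0.14) and Per2 (-0.63 ± 0.15). Nr1d2 lost its call without WT replicate 1 (-0.60) or knockout replicate 1 (-0.53), and Per2 without WT replicate 1 (-0.64), WT replicate 2 (-0.62) or knockout replicate 2 (-0.49). Neither was called without robust estimation, nor Per2 with DESeq2 or the replicate block. Arntl, the partner of Clock, had 1.04 and was called higher without the filter on low counts (1.06) and without WT replicate 2 (1.55). Knockout replicate 1 stood apart from the other 3 libraries in clock genes picked here after their values were seen. Nr1d1 had 5.85 and 49.9 CPM in knockout libraries, against 42.6 and 43.2 CPM in WT libraries. Dbp had 19.5 and 60.1 CPM in knockout libraries, against 71.0 and 69.1 CPM in WT libraries, and Ciart had 1.14 and 8.70 CPM, against 5.21 and 4.92 CPM in WT libraries. These genes were thus far lower in knockout replicate 1 than in knockout replicate 2. Other clock genes went the other way between knockout replicates 1 and 2: Arntl (6.13 and 4.95 CPM), Per2 (20.4 and 16.4 CPM) and Cry1 (9.41 and 4.77 CPM). Of 15 immediate-early genes 2 were called higher and none lower (median 0.68), Zfp36 (1.21 ± 0.17) and Dusp1 (0.63 ± 0.12); Dusp1 was not called without WT replicate 1 (0.63), WT replicate 2 (0.62) or knockout replicate 2 (0.57). Immediate-early genes summed to 456 and 286 CPM in knockout libraries, against 306 and 234 CPM in WT libraries. The sum was higher in replicate 1 of both groups, but its genes did not all follow it. In WT replicates 1 and 2 Nr4a1 had 127 and 76.2 CPM and Jun 66.0 and 43.7 CPM. Other genes of the list were lower in WT replicate 1, among them Junb (6.92 and 8.19 CPM) and Atf3 (5.02 and 8.27 CPM). The knockout libraries lay further apart in genes picked after their values were seen. Fos had 59.9 and 14.5 CPM in knockout replicates 1 and 2, against 7.87 and 6.16 CPM in WT replicates. Atf3 had 25.2 and 3.33 CPM in knockout replicates 1 and 2. Of the 15 genes only Dusp1 (57.3 and 62.8 CPM) and Ier3 (3.14 and 3.15 CPM) were lower in knockout replicate 1. The part of the cold-inducible, clock, immediate-early, fat-cell and red-cell values in the chaperone values was not tested.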

How the data were processed

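The deposited files hold raw counts of reads per Ensembl gene, with 1 file per library. The submitters' processing notes name GRCm38 and mm10 as builds and STAR, DESeq2 and Trimmomatic as tools, with no version; the annotation and the counting strand are not stated in the labels. Of 55573 gene IDs, 55480 matched GENCODE release M21, which gave symbols, coordinates and exon lengths. Genes were kept by filterByExpr of edgeR 4.0.16 (minimum count 10, minimum total 15), which left 13076, and scaled by TMM. The test of knockout over WT was the quasi-likelihood F test of edgeR (R 4.3.3, robust setting), fitted on all 4 libraries with a genotype term, and p-values were adjusted after Benjamini and Hochberg. Such p-values reflect no more than how libraries of 1 group differ. Whether that difference is technical or lies between animals was not tested. Standard errors were derived from the F statistic. The procedure was tested on simulated data in which every gene had the same dispersion (variability between libraries). That simulation cannot check calls of genes as variable as Hspa1a and Hspa1b. The number of called genes depends on this fit: it was 323 with robust estimation and 244 without, and an earlier fit of these data with the same filter and scaling gave a number between them that was not matched here. DESeq2 1.42.0 was an alternative. Shares of reads have exact (Clopper-Pearson) 95% intervals.

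Members, classes and lists were chosen with earlier results of these data known. The rule for named genes takes all 10 members, the 3 genes with the smallest p and called genes up to 6 in each of 12 lists, and the 6 nearest genes with a mean of at least 10 CPM (log2 prior count 2). Same-numbered libraries hardly deviated together (r = 0.051 across 6289 genes, which are not independent), and nothing in the labels pairs them. Motif letters were sought in the RefSeq promoter table.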

Additional observations from a re-analysis of the deposited data

How the results depend on the processing

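With 1 library left out the log2 fold change of Hsph1 was -1.96 to -1.38 and that of Hspa4l -1.55 to -1.27, which is no independent support since the members were chosen with these values known. The count of called members was 2, but 5 with DESeq2, 4 with the replicate block and 4 without robust estimation; the last setting was chosen after seeing the data. Hspa1a and Hspa1b entered in all 3 of these. With the replicate number as a block, 314 genes were called in place of 323, and the labels do not show that the numbers pair libraries. Without the filter on low counts 720 genes were called. Leaving out 1 library gave 223 to 415 calls, and without WT replicate 1 the share of higher calls was 65.7% in place of 77.4%. The inducible minus constitutive median of -2.29 was -3.02 with Hspa4l counted as constitutive, -1.49 with Hspa1a and Hspa1b summed, and -2.99 to -1.65 with 1 library left out. The inducible share of cytosolic HSP70 reads was 12.7 points lower in the knockout (a difference of -12.7), and -18.2 to -7.28 with 1 library left out. Over the 12 lists 17 genes were called, 11 without robust estimation and 10 to 24 with 1 library left out (10 without WT replicate 1). Heat shock elements were found in 1 gene by the 3-unit and 3 by the 2-unit letters. Of the 17, Hsp90aa1, Chordc1, Dnaja1, Bag3, Hspb1, Zfp36 and Rbm3 were called under all 11 alternatives run, save that Rbm3, which is X-linked, was not in the fit without X and Y genes. Depth limits Hspa2 and the inducible pair in knockout replicate 2, where each copy had 28 counts. The cause of these shifts was not tested.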
